A study of Mus musculus with 2 samples.

Results

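Hepcidin, the BMP-SMAD target genes around it and 2 genes that feed into the pathway, Bmp6 and Tfr2, were described in the livers of control mice and of mice given ortho-toluidine (OTD), an aromatic amine. The 10 genes (Hamp, Hamp2, Id1, Id2, Id3, Smad6, Smad7, Atoh8, Bmp6 and Tfr2) were chosen by symbol from their known roles, with their levels in these 2 libraries already known, so their values are a description and carry no test. All 10 had a row among the 15348 genes of the table. The mice were female, 16 weeks old and labelled NOG-TKm30: severely immunodeficient NOG mice, which lack mature lymphocytes, with a clone 30 HSVtk mutant cDNA driven from the transthyretin enhancer and promoter, which is active in hepatocytes. Control mice and treated mice both carried the transgene, and no OTD was given to controls. The OTD dose was 0.6% in the first 1 week and 0.3% over the following 3 weeks, by a route not stated in the labels. The protocol text names C57BL mice instead, and the column names carry an unexplained word, Wild.

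RNA of 3 control mice made up 1 library and RNA of 5 OTD mice the other. Each group therefore has 1 library, neither has replicates, and the spread between mice or pools was not measured. The control library held 13569189 reads and the OTD library 14685193 reads over the listed genes. Levels are CPM, reads scaled to a common depth, divided by a scaling factor for each library. Albumin (Alb), the main secreted product of hepatocytes, took 8.01% of the control level and 7.10% of the OTD level, and all 6 hepatocyte markers were present in both libraries. The libraries also differed in the ribosomal RNA precursor Rn45s, which took 1.47% of the control level and 2.66% of the OTD level.

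Hepcidin is a peptide hormone made by hepatocytes that brings about the degradation of the iron exporter ferroportin and so lowers the entry of iron into plasma. Its gene is switched on by bone morphogenetic proteins, chiefly BMP6 and BMP2 from sinusoidal endothelial cells, which bind receptors and the co-receptor hemojuvelin on hepatocytes and lead to phosphorylation of SMAD1, SMAD5 and SMAD9. The same SMADs switch on the Id genes and the feedback inhibitors Smad6 and Smad7, while interleukin 6 acts on hepcidin through STAT3.

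Hamp and most of the BMP target genes stood lower in the OTD pool, Id1, Id3 and Smad7 by more than Hamp itself, while Hamp2 stood slightly higher. The point ratios of Smad6 and Bmp6 were above 1 with counting intervals that held 1. Across the 10 genes, the 95% counting interval of the ratio lay below 1 for 6, above 1 for 1 and held 1 for 3. These exact Clopper-Pearson intervals rest on the split of reads between the libraries, cover counting error only and say nothing of variation between mice. Abundant genes outside the 10 also had intervals that left out 1, Alb below it and the urea cycle gene Cps1 above it. How often this occurs among all listed genes was not counted. The interval counts of the 10 genes therefore have no share to stand beside and do not set these genes apart. Of the 10 genes, 8 had a mean level of at least 10 and are called measured below, and Bmp6 and Smad6 were under that level. A ratio of levels of at least 1.2 separated 5 of the 8 measured genes as lower (Hamp, Id1, Id2, Id3 and Smad7) and 0 as higher. Among all 7602 measured genes, 8.97% were lower and 11.2% higher by the same rule. The split depends on the filter: Id1 passed with a mean of 12.4, though its OTD level was 8.08, and Smad6 missed with 9.77. With a mean of at least 1 all 10 genes entered, 5 of them lower and 2 (Bmp6 and Smad6) higher. On the log2(level + 1) scale, where the pseudocount of 1 makes the ratios of low genes smaller, 0 of the 8 reached 1 in either direction, where 0.210% of all measured genes did in each. The median log2 ratio of the 8 genes was -0.30 (-0.25 over all 10), beside -0.0063 over all measured genes, of which 51.6% were below 0.

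**Figure D1:**
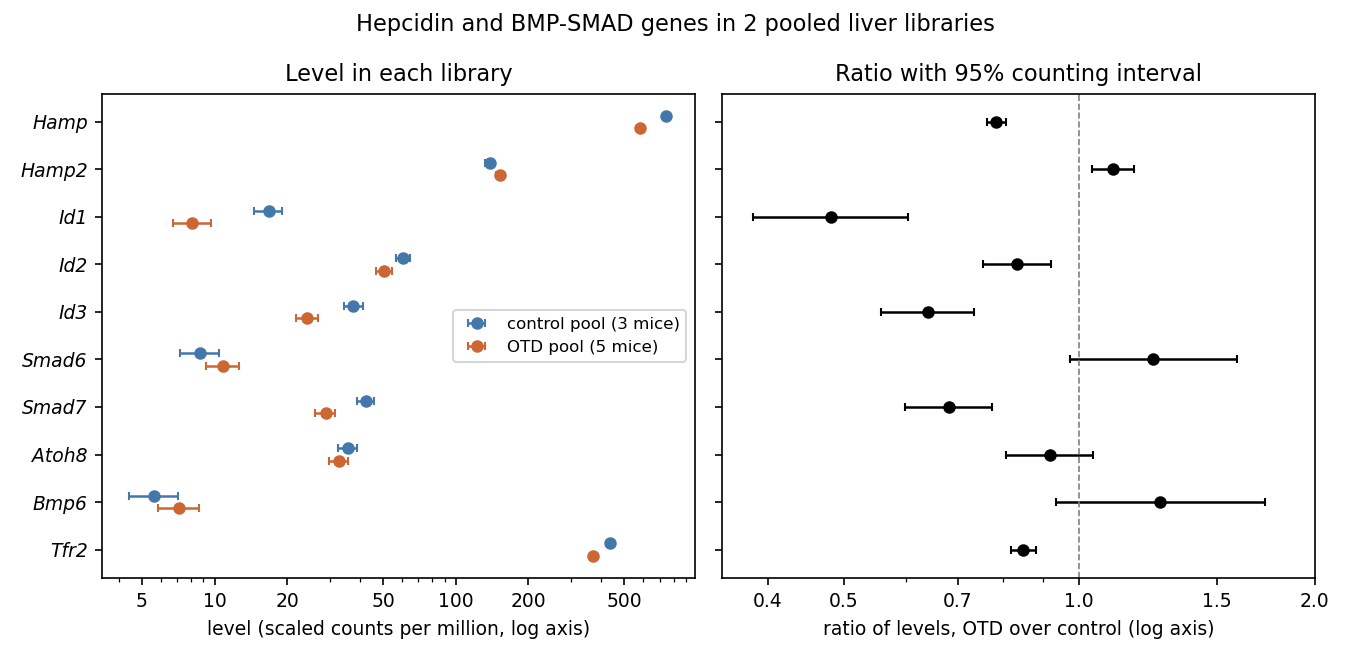
Levels of the 10 genes in the control and OTD pools (left, scaled CPM on a log axis) and the ratio of levels, OTD over control (right, log axis), with 95% counting intervals as error bars. Id1, Id3, Smad7, Hamp, Tfr2 and Id2 lie left of 1 with their whole interval, and Hamp2 lies right of 1.

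Hamp, which encodes hepcidin, stood at 742.3 in the control pool (counting interval 727.7 to 757.0, 9880 reads) and at 581.9 in the OTD pool (569.7 to 594.2, 8711 reads). The OTD value was 1.28-fold lower (1.24 to 1.31), a log2 ratio of -0.35, which was the 291st lowest of the 7602 measured genes. In bulk liver, fewer cells of a type and less RNA per cell cannot be told apart, here and in all values that follow. Hamp is on chromosome 7 at 30942368 to 30944032, minus strand, in the GRCm38 (mm10) assembly. Hamp2, a hepcidin copy 17.7 kb away on the same strand (30922372 to 30924681), stood at 138.0 in control and 152.4 in OTD, a ratio of 1.10 (1.04 to 1.17). The hepcidin copies thus stood on opposite sides of 1. The quotient of Hamp reads over Hamp2 reads, into which no scaling enters, was 5.38 in control (5.12 to 5.66) and 3.82 in OTD (3.65 to 4.00). These intervals, which cover counting error only, did not overlap. How often the intervals of other gene pairs separate was not counted, here and for the quotients that follow. Of the 50-base stretches of Hamp, 16.6% also occur in Hamp2 transcripts, and 11.2% of those of Hamp2 occur in Hamp, so some reads can be assigned to either copy. Summed over both, the level was 880.3 in control and 734.2 in OTD, a ratio of 0.834 (0.813 to 0.856). An annotated noncoding gene, Gm44662, runs over both copies on the opposite strand. Gm44662 is not among the listed genes and so has no level here. Whether counting used strand is not given in the sources used here.

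The stretch before the RefSeq start of each hepcidin gene is shown because it holds the letters known as the BMP-responsive element and the STAT site of the hepcidin promoter, and because the copies differ in it. The sequences are RefSeq windows of the GRCm38.p6 assembly (C57BL/6J), not of NOG mice, on the minus strand at chr7:30944050-30944179 for Hamp and chr7:30924199-30924328 for Hamp2, 5′ to 3′. They run from 150 to 21 bases before the RefSeq start of Hamp (30944029) and from 147 to 18 before that of Hamp2 (30924181). The GENCODE span of Hamp2 given above begins 500 bases further upstream, so its stretch lies within that span, between annotated exons, while that of Hamp lies outside the Hamp span. Capitals mark the letters GGCGCC of Hamp with the aligned letters of Hamp2, and then the match to TTCNNNGAA.
Hamp: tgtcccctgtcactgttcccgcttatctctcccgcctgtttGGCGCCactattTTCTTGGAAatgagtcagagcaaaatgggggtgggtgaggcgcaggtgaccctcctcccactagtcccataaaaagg
Hamp2: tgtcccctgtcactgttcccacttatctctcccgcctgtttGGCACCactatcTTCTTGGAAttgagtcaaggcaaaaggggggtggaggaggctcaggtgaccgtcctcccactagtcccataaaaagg
Aligned without gaps, 119 of these 130 bases were identical (91.5%) and 11 differed. Within the GGCGCC letters of Hamp, at positions 42 to 47 counted from 1 at the 5′ end of the printed stretch, 1 base differed in Hamp2 (G45A), which gives GGCACC. The match to TTCNNNGAA, at positions 54 to 62, was TTCTTGGAA in both genes and does not overlap the first.

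RefSeq windows from 250 bases before to 50 after a RefSeq start were matched for 8 of the 10 genes, in 10 windows, and Id1 and Smad7 had no entry. GGCGCC, which is its own reverse complement, occurred in 2 windows, those of Hamp and Id2, and in 11.9% of all 32851 windows of the table. TTCNNNGAA occurred on either strand in the windows of Hamp and Hamp2 and in 8.30% of all windows. The E-box letters CANNTG, to which basic helix-loop-helix factors bind and whose binding ID proteins block, occurred in 6 windows (Hamp, Hamp2, Id2, Smad6, Atoh8 and Bmp6) and in 72.3% of all. A match is a description of letters and not a shown binding site. The Id2 stretch that holds the match begins 250 bases before the RefSeq start (25096092), on the minus strand at chr12:25096298-25096342, and is given for comparison with Hamp, with GGCGCC in capitals.
Id2: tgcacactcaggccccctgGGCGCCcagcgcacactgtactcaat
GGCGCC begins 231 bases before the RefSeq start of Id2 and 109 before that of Hamp. The GENCODE span of Id2 begins 1048 bases upstream of the RefSeq start, so this stretch too lies within the annotated gene, between exons.

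The Id genes encode inhibitors of DNA binding, small helix-loop-helix proteins that lack a DNA-binding region and are among the most direct BMP targets. Id1 stood at 16.8 in control (14.6 to 19.1, 223 reads) and at 8.08 in OTD (6.71 to 9.66, 121 reads). The OTD value was 2.07-fold lower (1.65 to 2.61), and the log2 ratio with the pseudocount was -0.97, the 20th lowest of the measured genes. Id1 entered that ranking through its control level, since its OTD level alone was under 10, so the rank is only a description. Id1 thus passed a factor of 2 in the plain ratio and did not reach it on the log2 scale with the pseudocount. Id3 stood at 37.6 in control (501 reads) and 24.1 in OTD (361 reads), 1.56-fold lower (1.36 to 1.79), with a log2 ratio of -0.62 that was the 51st lowest. Id2, a broadly expressed member of the family, stood at 60.6 in control and 50.4 in OTD, a ratio of 0.833 (0.753 to 0.921), at the edge of the rule of 1.2.

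The Id genes therefore differed among themselves. The quotient of Id1 reads over Id2 reads was 0.277 in control (0.237 to 0.321) and 0.160 in OTD (0.131 to 0.194). That of Id3 over Id2 was 0.622 (0.555 to 0.696) and 0.478 (0.421 to 0.543). Neither pair of intervals overlapped. The quotient of Id1 over Id3 was 0.445 (0.378 to 0.522) in control and 0.335 (0.271 to 0.413) in OTD, and here the intervals overlapped. The 3 genes summed to 114.9 in control and 82.6 in OTD, a ratio of 0.719 (0.666 to 0.775). Id1 is on chromosome 2 at 152736251 to 152737410 and Id3 on chromosome 4 at 136143497 to 136145755, both on the plus strand, and Id2 is on chromosome 12 at 25093799 to 25097140, minus strand.

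**Figure D2:**
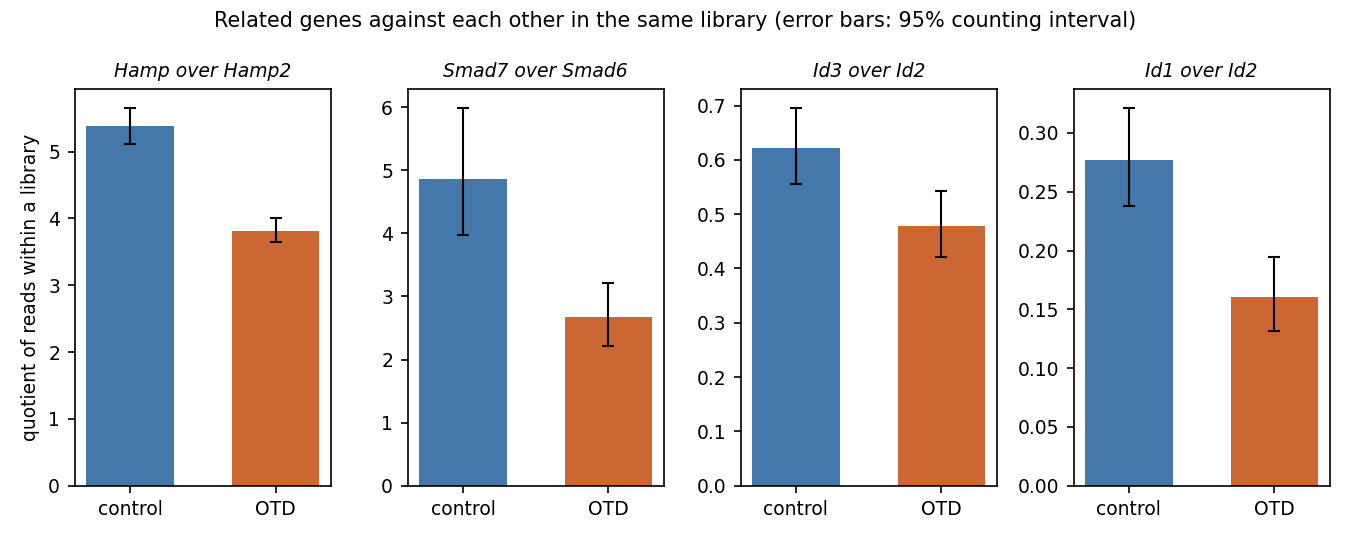
Quotient of the reads of related genes within the same library (y axis, starting at 0), control in blue and OTD in orange, with 95% counting intervals as error bars. The 4 quotients drawn are lower in the OTD library, Hamp over Hamp2 at 3.82 against 5.38, and their intervals do not overlap between libraries. The pairs were chosen with the levels of the genes known, and Id1 and Id3 are both set over Id2. Of the pairs not drawn, Id1 over Id3 had overlapping intervals, and Hamp over Tfr2 and Hamp over Alb did not. How often the intervals of other gene pairs separate was not counted, so the lack of overlap does not set these pairs apart.

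The inhibitory SMADs block receptor signalling and are switched on by the pathway they restrain. Smad7 stood at 42.4 in control (38.9 to 46.0, 564 reads) and at 28.9 in OTD (26.2 to 31.7, 432 reads), 1.47-fold lower (1.29 to 1.67), with the 90th lowest log2 ratio (-0.54). Smad6 had a low level, 8.71 in control (7.20 to 10.5, 116 reads) and 10.8 in OTD (9.22 to 12.6, 162 reads). Its ratio was 1.24 (0.972 to 1.59). A difference in Smad6 was thus not detectable at this depth, but Smad7 and Smad6 were unequal in their ratios. The quotient of Smad7 reads over Smad6 reads was 4.86 in control (3.97 to 5.99) and 2.67 in OTD (2.22 to 3.21), with no overlap of the intervals.

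Atoh8, a basic helix-loop-helix factor that BMP signalling induces in liver, stood at 35.6 in control and 32.7 in OTD, a ratio of 0.917 (0.807 to 1.04), an interval that held 1. It was the one measured BMP target among the 10 genes whose interval held 1. Smad7 lies on chromosome 18 at 75367529 to 75395935 (plus strand), Smad6 on chromosome 9 at 63953076 to 64022059 and Atoh8 on chromosome 6 at 72206177 to 72235577 (both minus strand).

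Bmp6 encodes the ligand through which liver iron stores raise hepcidin. It stood at 5.63 in control (4.43 to 7.06, 75 reads) and at 7.15 in OTD (5.86 to 8.64, 107 reads). Its ratio was 1.27 (0.936 to 1.73), so a difference was not detectable at this depth. It shares 224 bases with Txndc5 on the other strand, at 136.8 in control and 149.7 in OTD, and also overlaps an antisense gene, 4930579J19Rik, for which no level is given here. The 10 sinusoidal endothelial markers, of the cells that make liver Bmp6, summed to 604.1 in control and 578.4 in OTD. Their median log2 ratio was -0.067, with 6 below 0 and 4 above, none was at 0 in either library, and the median turned slightly positive (0.0053) after scaling to the same total without the ribosomal RNA precursor Rn45s. Their part in the Bmp6 value was not tested.

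Tfr2 encodes transferrin receptor 2, the hepatocyte sensor of iron-loaded transferrin, whose loss lowers hepcidin. It stood at 437.1 in control (425.9 to 448.5, 5818 reads) and at 370.9 in OTD (361.2 to 380.8, 5553 reads), 1.18-fold lower (1.14 to 1.22). Hamp was lower by more than Tfr2: the quotient of their reads was 1.70 in control (1.64 to 1.75) and 1.57 in OTD (1.52 to 1.62). Bmp6 is on chromosome 13 at 38345107 to 38500302 and Tfr2 on chromosome 5 at 137569840 to 137587481, both on the plus strand. All 10 genes are annotated as protein-coding.

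The abundant hepatocyte genes Alb and Trf had ratios near that of Tfr2, while other hepatocyte markers lay further from it on either side. These values stand beside the hepcidin result. Alb had a ratio of 0.853 (0.851 to 0.856), and Trf, which encodes the plasma iron carrier transferrin, of 0.847 (0.842 to 0.851), from 22723 to 19235. Hnf4a, a transcription factor of hepatocyte identity, had 0.707 (0.688 to 0.725), and Serpina1a, an antiprotease gene, 0.916 (0.905 to 0.927). Cps1, the first enzyme of the urea cycle, stood at 1.10 (1.09 to 1.11). The 6 hepatocyte markers summed to 102941 in control and 90325 in OTD, a ratio of 0.877, with 5 of 6 below a log2 ratio of 0 and a median of -0.12. The quotient of Hamp reads over Alb reads was 0.00909 in control (0.00891 to 0.00927) and 0.00835 in OTD (0.00817 to 0.00853). Hamp was thus lower against Alb too, by less than in the scaled levels. The part of hepatocyte content in the Hamp value was not tested.

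Levels of different genes were compared per kilobase of the longest annotated transcript. In the control pool the order was Hamp (1810 per kb), Hamp2 (315.8), Tfr2 (142.3), Id2 (30.8), Id3 (29.5), Atoh8 (15.1), Id1 (14.4), Smad7 (9.90), Smad6 (2.93) and Bmp6 (1.57). The counting intervals of the neighbours Id2 and Id3 overlapped there, and so did those of Atoh8 and Id1. In the OTD pool the order was the same, with Hamp at 1419, Hamp2 at 348.7, Tfr2 at 120.7 and Bmp6 at 1.99 per kb. There Id3 (18.9) lay below Id2 (25.6) and Id1 (6.97) below Atoh8 (13.9) without overlap, while Id1 and Smad7 (6.75) overlapped.

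**Figure D3:**
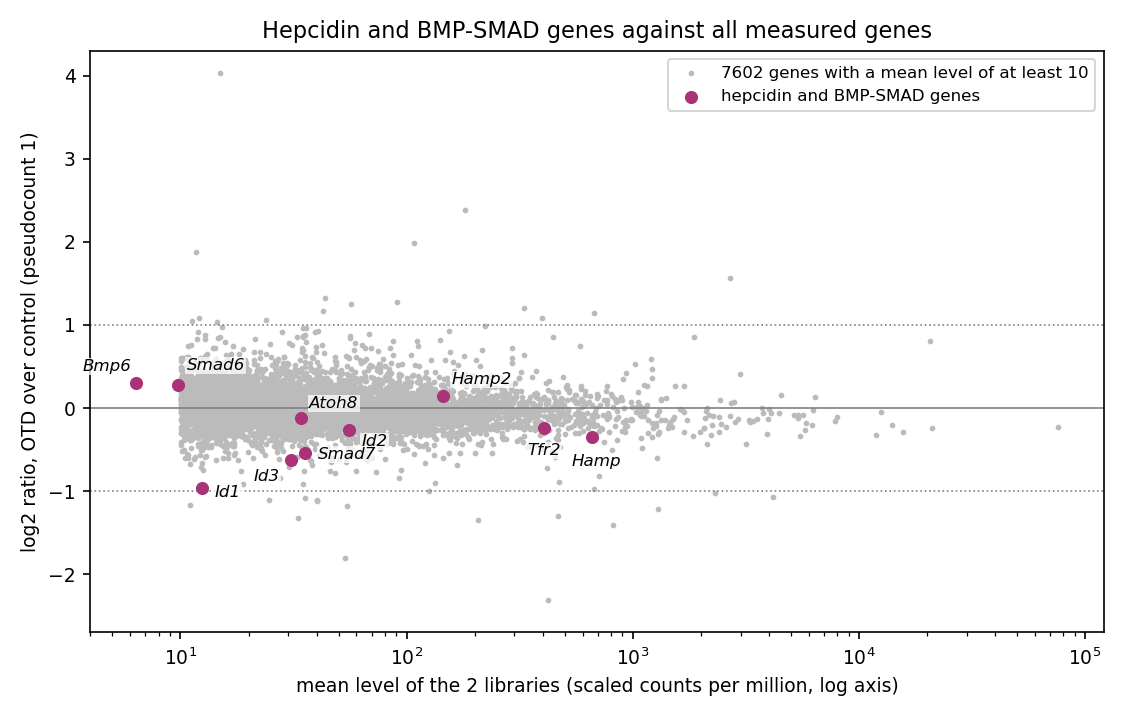
Log2 ratio, OTD over control with a pseudocount of 1 (y axis), against the mean level of both libraries (x axis, log), for the 7602 measured genes in grey and the 10 hepcidin and BMP-SMAD genes in purple; dotted lines mark a log2 ratio of 1 and -1. Id1 (-0.97), Id3 (-0.62) and Smad7 (-0.54) lie at the lower edge of the cloud, and Hamp2 (0.14) lies above 0.

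Upstream of the targets, the counting intervals of the measured ligands held 1, as did that of Bmp6. Bmp2, the other endothelial ligand that controls hepcidin, stood at 33.5 in control and 31.2 in OTD, a ratio of 0.931 (0.816 to 1.06). Gdf2, which encodes the circulating ligand BMP9, stood at 22.8 and 20.8, a ratio of 0.910 (0.774 to 1.07). Of the 8 ligands listed, these 2 were measured, 0 of 2 passed the rule of 1.2, and their median log2 ratio was -0.12. Here and in the lists that follow, such counts stand beside 8.97% lower and 11.2% higher among all measured genes. Whether the counts of these short lists differ from those shares was not tested. The remaining 6 (Bmp4, Bmp5, Bmp6, Bmp7, Bmp8b and Bmp10) were under the mean of 10.

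Among receptors and co-receptors, the co-receptor gene for hemojuvelin, listed under its older symbol Hfe2, stood higher, from 22.9 (305 reads) to 39.3 (589 reads), 1.72-fold (1.49 to 1.98). This was the 53rd highest log2 ratio (0.75), and mutations in the human gene cause juvenile iron overload with very low hepcidin. The type I receptor Bmpr1a (ALK3), which hepcidin expression requires, stood at 61.2 in control and 50.5 in OTD, 1.21-fold lower (1.10 to 1.34). Acvr2a, a type II receptor, had a ratio of 0.866 (0.783 to 0.959), and the intervals of Bmpr2, the most abundant receptor (0.972, 0.907 to 1.04), and of the endothelial co-receptor Eng (1.07, 0.988 to 1.16) held 1. Of 12 listed genes 7 were measured, 1 was lower and 1 higher by the rule of 1.2. Their median log2 ratio of -0.020 ranged from -0.20 (11 genes, a mean of at least 1) to 0.047 (scaling without Rn45s) across the settings tried.

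The SMAD transcription factors showed smaller differences, with 0 of 6 past the rule of 1.2. Smad9, which is itself a BMP target, had a ratio of 0.845 (0.728 to 0.982). Smad1, a transducer of BMP signals, had 1.18 (0.998 to 1.39), while Smad2 and Smad3, which carry TGF-beta and activin signals, had 1.12 (0.958 to 1.30) and 1.13 (0.954 to 1.34). Smad4, the partner that both branches share, had 0.919 (0.830 to 1.02). The median log2 ratio was 0.10 over the 6, with 4 above 0 and 2 below.

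Of 20 antagonists and inhibitors on the list, 17 had a row and 9 were measured, of which 2 were lower by the rule of 1.2 and 0 higher. The 2 were Skil and Smad7, of which Smad7 is among the genes chosen with their levels known. Skil encodes the SMAD-binding repressor SnoN and stood at 49.7 in control and 34.5 in OTD, 1.44-fold lower (1.28 to 1.62). Tmprss6, the hepatocyte protease that cleaves hemojuvelin and so restrains hepcidin, stood at 722.6 in control and 624.0 in OTD, 1.16-fold lower (1.13 to 1.19). Smurf2, a ubiquitin ligase for SMADs and receptors, was 1.14-fold lower (1.05 to 1.23). Below the mean of 10, and named after its value was seen, Fst, which encodes the activin and BMP binding protein follistatin, stood at 3.53 (47 reads) in control and 8.48 (127 reads) in OTD, a ratio of 2.40 (1.71 to 3.43). The median of the 9 was -0.13, and it was 0.031 over 10 genes after scaling without Rn45s and 0.047 over 17 without a filter on level.

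**Figure D4:**
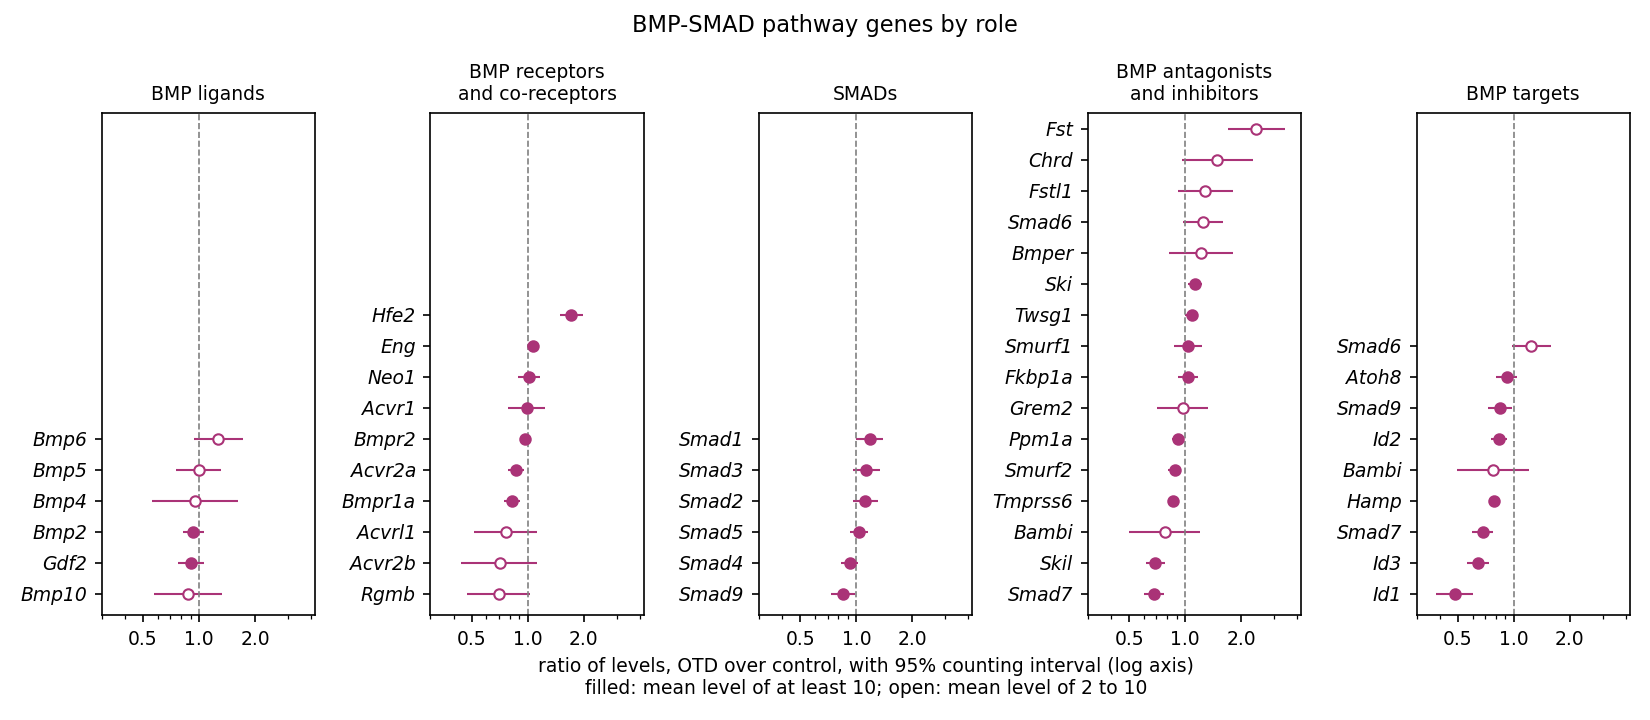
Ratio of levels, OTD over control (x axis, log), with 95% counting intervals, for BMP pathway genes with a mean level of at least 2, grouped by role; filled points have a mean of at least 10 and open points 2 to 10. Hfe2 (1.72) and Fst (2.40) lie to the right of 1, and the targets Id1, Id3, Smad7 and Hamp lie to the left.

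The wider list of BMP targets held 12 listed genes, 7 of them among the 10. Of the other 5, Smad9 was measured, with the ratio given above, and Id4, Bambi, Gata2 and Hey1 were under the mean of 10. Named after their values were seen, the decoy receptor gene Bambi had 47 reads in control and 41 in OTD and Id4 had 20 and 19, so differences were not detectable at this depth. The 7 measured genes of the list were below 0, with a median of -0.35. Over all measured genes 51.6% were below 0 and the median was -0.0063. By the rule of 1.2, 5 of the 7 were lower and 0 higher, beside 8.97% and 11.2% of all measured genes. Since 6 of the 7 are among the 10 chosen with their levels known, these counts largely repeat those of the 10 genes. Smad6, above 0, entered only with a lower minimum or another scaling: the median was -0.23 over 8 genes after scaling without Rn45s and -0.25 over all 12 without a filter.

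Genes of iron handling, Tfr2 among them, lay on both sides of 0, with 13 below and 9 above. Of 25 listed genes 22 were measured, and 2 were lower and 2 higher by the rule of 1.2, beside 8.97% and 11.2% of all measured genes. Their median log2 ratio of -0.044 took either sign across the settings tried (-0.062 to 0.028). Slc39a14, an importer of non-transferrin iron in hepatocytes, stood at 197.7 in control and 160.8 in OTD, 1.23-fold lower (1.16 to 1.30). Pcbp2, an iron chaperone, was 1.21-fold lower (1.15 to 1.28). The mitochondrial iron importer Slc25a37 (mitoferrin 1), which is most abundant in erythroid cells, had a ratio of 1.30 (1.14 to 1.47), and the heme-degrading enzyme Hmox1 of 1.22 (1.07 to 1.39). Slc40a1, the ferroportin gene, and the ferritin gene Fth1, both named after their values were seen, had ratios of 0.929 (0.889 to 0.970) and 1.14 (1.12 to 1.17).

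Erythroid genes were examined because erythroblasts release erythroferrone, which lowers hepcidin by binding BMP6. The 8 erythroid markers summed to 312.7 in control and 390.2 in OTD, and most of that difference was in Hba-a2, at 80.6 and 142.2 (1.76-fold, 1.64 to 1.90), while its near-identical copy Hba-a1 had a ratio of 1.07 (1.02 to 1.13), so the split between the copies is uncertain. Alas2 and Hbb-bt had ratios of 1.06 (0.868 to 1.29) and 1.05 (0.869 to 1.28). The erythroferrone gene itself, listed as Fam132b and named after its value was seen, stood at 0.751 (10 reads) and 0.401 (6 reads). Its ratio was 0.533 (0.159 to 1.62). The 4 that were measured had a median log2 ratio of 0.087, all above 0. None of the 8 was at 0 in either library, and their part in the Hamp value was not tested.

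Of the other cell type markers, the 7 Kupffer cell markers summed to 318.2 in control and 291.0 in OTD, the 8 stellate cell markers to 772.1 and 729.6, and the 5 cholangiocyte markers to 46.1 and 43.1. The medians of their measured genes were -0.13 (5 of 5 below 0), -0.046 (5 of 7 below 0, with either sign across settings) and -0.17 (2 of 2 below 0, and 0.093 over all 5 without a filter). None of these markers was at 0. Id1, Id3 and Smad7 are expressed in endothelial and stellate cells as well as in hepatocytes, and the part of cell content in their values was not tested.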

How the data were processed

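Per the labels' protocols, an MGIEasy directional kit was used on rRNA-depleted RNA (200 ng input). The deposited table gives 1 normalized signal per gene symbol and library, which the authors derived from read counts. Trimmomatic 0.38, Bowtie2, RSEM, edgeR and mm10 are named, without role or order, in the submitters' processing notes. Which annotation the authors counted on, and whether genes were filtered, is not given in those sources. Dividing each column by its smallest step gave a whole number for 100% of genes (tolerance 1e-06), which were taken as reads, and the columns behaved as CPM divided by 0.981 (control) and 1.02 (OTD). The level of 3 reads was 0.225 (control) and 0.200 (OTD).

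The genes, the lists and the rules of size were chosen with earlier results of these data known. Since each group has 1 library, nothing is left to estimate a spread from, and neither a count test nor a p-value is reported. Log2 ratios used a pseudocount of 1. Ratios and quotients used none and carry 95% exact Clopper-Pearson intervals, and levels carry exact Poisson intervals, all for counting error only. Measured genes had a mean of at least 10. All 10 genes were named, and from each list the 4 measured genes with the largest absolute log2 ratio and the most abundant one could be named. Genes most alike in pattern were not sought, since 2 libraries give each gene a single ratio. Other gene lists were BMP ligands, receptors and co-receptors, SMADs, antagonists and inhibitors, BMP targets, iron handling, STAT3 targets, TGF-beta targets and markers of 6 cell types. Positions and transcript lengths came from GENCODE M21 on GRCm38, and promoter windows from RefSeq on GRCm38.p6. The intervals were tested on simulated reads that carried counting error only, so the simulation says nothing of variation between mice or pools. Alternatives were pseudocounts of 0.5 and 10, a mean of at least 1 or 50 or no filter, and 4 other scalings. Software was scipy 1.17.1, pandas 2.3.3, matplotlib 3.10.9 and numpy 2.4.6 under Python 3.11.15.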

Additional observations from a re-analysis of the deposited data

How the results depend on the processing

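No paired analysis was possible because each group has 1 library. Under pseudocounts of 0.5 and 10 and the 4 other scalings, 0 of 60 log2 ratios of the 10 genes changed sign and 5 moved beyond their counting interval. Those were Id1 at a pseudocount of 10 (-0.57), and Hamp (-0.30 and -0.28) and Tfr2 (-0.18 and -0.16) after scaling to the same total with and without Rn45s. With a pseudocount of 0.5, 1 gene (Id1) passed a log2 ratio of -1. The number lower by the rule of 1.2 was 4 in 3 scalings and 2 of 4 genes at a mean of at least 50, where fewer genes enter. The number higher was 1 after scaling without Rn45s (an alternative added after seeing the data), where Smad6 passed the filter, and 2 (Bmp6 and Smad6) at a mean of at least 1 or with no filter. The median over the genes that entered was -0.19 after scaling without Rn45s, beside 0.065 over all measured genes under that scaling. Of 124 list medians, 15 changed sign. Depth limits Bmp6 and Smad6 most, and pooling leaves variation between mice unmeasured.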

Other observations

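Hepcidin also responds to interleukin 6 through STAT3, and genes of that branch went both ways. Of 15 listed genes 12 were measured, 6 below and 6 above a log2 ratio of 0, with a median of -0.016 that turned positive (0.039) after scaling to the same total. By the rule of 1.2, 2 were lower and 1 higher, beside 8.97% and 11.2% of all measured genes. Il6ra, which encodes the interleukin 6 receptor chain, stood at 92.8 in control and 54.2 in OTD, 1.71-fold lower (1.57 to 1.87), the 29th lowest log2 ratio of all measured genes. Stat3 itself had a ratio of 1.17 (1.10 to 1.25). The acute phase gene Saa1 stood at 18.9 in control and 26.7 in OTD, a ratio of 1.41 (1.199 to 1.65), while Lbp, which encodes lipopolysaccharide-binding protein, had a ratio of 0.803 (0.752 to 0.858) and the abundant fibrinogen chain gene Fga had a ratio of 0.945 (0.935 to 0.954). Below the mean of 10, and named after its value was seen, the iron-siderophore binding gene Lcn2 stood at 4.81 (64 reads) and 9.42 (141 reads), a ratio of 1.96 (1.45 to 2.68).

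TGF-beta signals through SMAD2 and SMAD3 and also switches on Smad7 and Skil. Of 11 listed genes of that pathway 8 were measured, with a median log2 ratio of -0.11. By the rule of 1.2, 2 were lower and 0 higher, beside 8.97% and 11.2% of all measured genes. Klf10, an early TGF-beta response gene, stood at 61.1 in control and 39.5 in OTD, 1.55-fold lower (1.39 to 1.72). The type I receptor Tgfbr1 was 1.36-fold lower (1.21 to 1.54) and the type II receptor Tgfbr2 had a ratio of 1.19 (1.03 to 1.37). Tgif1, a SMAD corepressor, had a ratio of 0.846 (0.684 to 1.05), and Bhlhe40, the most abundant gene of the list, of 1.05 (0.978 to 1.12).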
